A study of Mus musculus with 6 samples.

Results

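A set of 9 genes commonly used as markers of mesothelial cells was followed through 6 mouse RNA-Seq libraries: *Upk3b*, *Upk1b*, *Gpm6a*, *Wt1*, *Msln*, *Muc16*, *Lrrn4*, *Bnc1* and *Aldh1a2*. They are 9 of the 30281 gene symbols in the deposited table, and were chosen by name for their level in *Tsc2*-null mouse embryo fibroblasts (MEFs). *Tsc2* encodes tuberin, which restrains the growth-regulating kinase complex mTORC1, and rapamycin inhibits that complex. The MEF libraries came from *Tsc2*+/+ and *Tsc2*-/- cells, both also labelled p53-/- and untreated. The other libraries came from 2 mouse kidney epithelial lines labelled Tsc2-null, MKOC and TJ, of which TJ was derived from a secondary tumor in C57BL6 mice. Each kidney line was cultured without rapamycin or with 100 nM rapamycin for 18 h in serum-free medium. Every condition was 1 library, so differences between single libraries have no replicate check, and each line stands for itself alone. The kidney lines carry the tests. Their levels were not the ground for choosing the 9 genes, but genes and lists were chosen with earlier results of these data known.

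The mesothelium is the single layer of cells that covers the serous membranes of the chest, heart and abdomen and the organs within them. It arises from mesoderm but forms an epithelial sheet, so its cells combine keratins and apical glycoproteins with transcription factors of mesenchymal tissues. Mesothelial progenitors of the embryo give rise to fibroblasts and smooth muscle cells in several organs, and retinoic acid made by Aldh1a2 is one of their signals.

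The promoters of the genes are unlike in base composition. A RefSeq window (GRCm38.p6) of the 250 bases before the annotated start was matched for 5 genes, *Upk3b*, *Gpm6a*, *Lrrn4*, *Bnc1* and *Aldh1a2*, and lay within 115 bases of the start of the transcript in the deposited table. The pair with the fewest and the most CG dinucleotides is shown, because both genes were at or near 0 counts in the kidney lines and high in the *Tsc2*-/- MEFs. CG dinucleotides are in capitals. The window of *Upk3b* is chr5:136038246-136038495 on the plus strand, and that of *Aldh1a2* is chr9:71215539-71215788 on the plus strand.
Upk3b: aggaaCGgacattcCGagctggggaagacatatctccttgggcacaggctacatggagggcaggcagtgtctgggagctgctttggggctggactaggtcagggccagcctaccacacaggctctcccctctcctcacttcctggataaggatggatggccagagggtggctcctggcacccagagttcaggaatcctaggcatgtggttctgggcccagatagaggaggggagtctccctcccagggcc
Aldh1a2: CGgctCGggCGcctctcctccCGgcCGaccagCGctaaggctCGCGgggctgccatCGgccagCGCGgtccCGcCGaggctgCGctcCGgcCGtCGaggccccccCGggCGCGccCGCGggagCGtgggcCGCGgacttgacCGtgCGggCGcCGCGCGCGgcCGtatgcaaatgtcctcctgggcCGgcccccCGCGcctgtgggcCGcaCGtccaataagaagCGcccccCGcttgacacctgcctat
The *Upk3b* window holds 2 CG dinucleotides and the *Aldh1a2* window 40. Over all 32851 RefSeq windows of that length the quartiles were 2, 6 and 16. *Gpm6a* with 3 and *Lrrn4* with 5 lay on the low side of the median, and *Bnc1* with 39 lay beside *Aldh1a2*. Then 4 short motifs were searched on both strands. GGAATG, the core of the TEAD element, was in 2 of the 5 windows (*Upk3b* and *Lrrn4*) and in 12.6% of all windows. TATAAA was in 1 of the 5 (*Gpm6a*; 12.4% of all), GGGCGG in 1 (*Bnc1*; 32.7% of all) and CCAAT in 1 (*Aldh1a2*; 33.8% of all). No window of these genes held more than 1 of the motifs, so none overlapped another. A match describes letters in the window and shows no binding.

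The libraries held between 22887020 and 37505004 estimated counts. Intervals given below are 95% Wilson intervals, a gene with at most 3 counts was taken as at the floor, and both cover counting error only. *Tsc2* itself was at 22.6 TPM (transcripts scaled by their length and by the library total) in the *Tsc2*+/+ MEFs and 10.5 TPM in the library labelled *Tsc2*-/-. In the kidney libraries labelled Tsc2-null it was at 49.1 (MKOC untreated), 19.5 (MKOC rapamycin), 44.0 (TJ untreated) and 19.1 TPM (TJ rapamycin), so *Tsc2* RNA was present in all 5 libraries labelled null and the genotypes are used as labelled. *Trp53*, the gene of p53, was at 26.3 TPM in the *Tsc2*+/+ and 28.5 TPM in the *Tsc2*-/- MEFs, so its RNA too was present in both libraries labelled p53-/-. Of 12 kidney epithelial markers, 8 were at 10 TPM or more in each kidney library, led by *Cdh16*, *Pax8* and *Cdh1*, while *Epcam*, *Cldn7* and *Lhx1* had at most 1 count. In the MEFs 1 of the 12 reached 10 TPM (*Emx2*), and of 10 fibroblast markers 8 (*Tsc2*+/+) and 9 (*Tsc2*-/-) reached 1 TPM. Of 7 endothelial and blood cell markers none reached 10 TPM in any library.

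In the *Tsc2*-/- MEFs, 8 of the 9 genes were at 10 TPM or more, in the *Tsc2*+/+ MEFs none was, and in each kidney library only *Msln* was. Summed over the 9 genes, the level was 2.66 TPM in the *Tsc2*+/+ MEFs, 540.7 in the *Tsc2*-/- MEFs, 80.4 in untreated MKOC, 151 in rapamycin-treated MKOC, 70.3 in untreated TJ and 98.5 in rapamycin-treated TJ cells. *Msln* made up 11.2% of the sum in the *Tsc2*-/- MEFs and between 98.9% and 99.5% of it in the kidney libraries. The other 8 genes together reached 480 TPM in the *Tsc2*-/- MEFs and between 0.510 and 0.904 TPM in the kidney libraries. The kidney lines thus held the RNA of 1 of these genes and close to none of the rest. In bulk RNA, fewer cells of a type and less RNA per cell cannot be told apart.

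**Figure D1:**
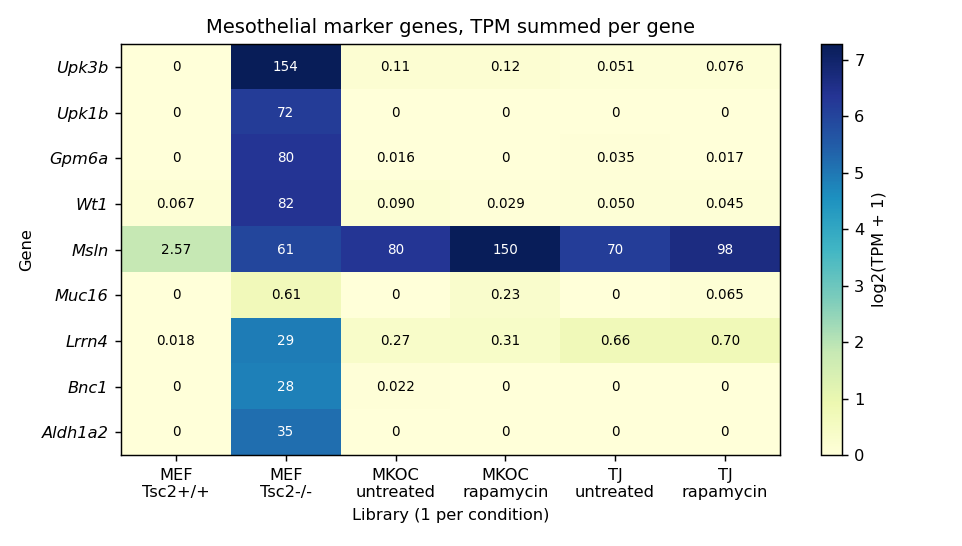
Level of each of the 9 mesothelial marker genes (rows) in each of the 6 libraries (columns), with TPM printed in each cell and log2(TPM + 1) as the color. The column of the *Tsc2*-/- MEFs is filled for every gene except *Muc16*, and *Msln* is the only row filled in the kidney columns.

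**Figure D2:**
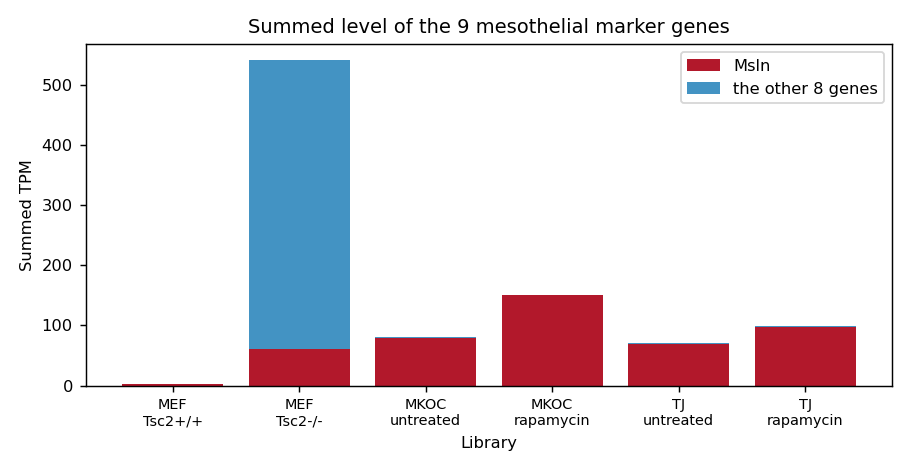
Summed TPM of the 9 genes (bar height, axis from 0) in each library, split into *Msln* and the other 8. *Msln* is 11.2% of the bar of the *Tsc2*-/- MEFs and at least 98.9% of each kidney bar.

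Mesothelin and mucin 16 are a pair of surface proteins. Mesothelin, the product of *Msln*, is anchored to the membrane by a lipid tail and binds Muc16, the large mucin that carries the CA125 antigen. *Msln* lies at chr17:25748613-25754378 on the minus strand (GRCm38), 1.12 Mb from *Tsc2*. Its level was 2.57 TPM (interval 2.20 to 3.01; 156 counts) in the *Tsc2*+/+ MEFs and 60.6 TPM (57.9 to 63.5; 1814 counts) in the *Tsc2*-/- MEFs. It was 79.9 TPM (77.1 to 82.7; 3104 counts) in untreated MKOC, 150.4 TPM (146 to 155; 4536 counts) in rapamycin-treated MKOC, 69.5 TPM (66.8 to 72.3; 2425 counts) in untreated TJ and 97.6 TPM (94.4 to 101; 3423 counts) in rapamycin-treated TJ cells. The *Tsc2*+/+ MEFs were the low library, and every kidney library was above the *Tsc2*-/- MEFs, at 115% (TJ untreated) to 248% (MKOC rapamycin) of their level. From low to high the order was *Tsc2*+/+ MEFs, *Tsc2*-/- MEFs, untreated TJ, untreated MKOC, treated TJ and treated MKOC, and the counting intervals of neighbours in it did not overlap. Among genes with at least 1 TPM, 9.13% were below *Msln* in the *Tsc2*+/+ MEFs, 76.7% in the *Tsc2*-/- MEFs, and between 79.8% (TJ untreated) and 92.4% (MKOC rapamycin) in the kidney libraries. *Msln* was therefore among the more abundant messages of both kidney lines.

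*Muc16*, the partner of mesothelin, did not accompany it. It had 8 counts (0.605 TPM) in the *Tsc2*-/- MEFs, 3 counts (0.225 TPM) in treated MKOC, 1 count (0.0647 TPM) in treated TJ, and 0 counts in the *Tsc2*+/+ MEFs and both untreated kidney libraries. A count of 0 there allows up to 0.113 TPM in the *Tsc2*+/+ MEFs, 0.175 in MKOC and 0.195 in TJ cells. Only the *Tsc2*-/- MEFs were above the floor. The table holds 1 transcript of *Muc16*, 1035 bases long and confined to chr9:18495455-18512885 of a gene annotated over chr9:18495455-18674530, so its values describe that transcript and not the whole mucin gene. Of the other membrane mucins, *Muc1* and *Muc4* were read here and reached at most 7.38 and 0.595 TPM in any library.

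**Figure D3:**
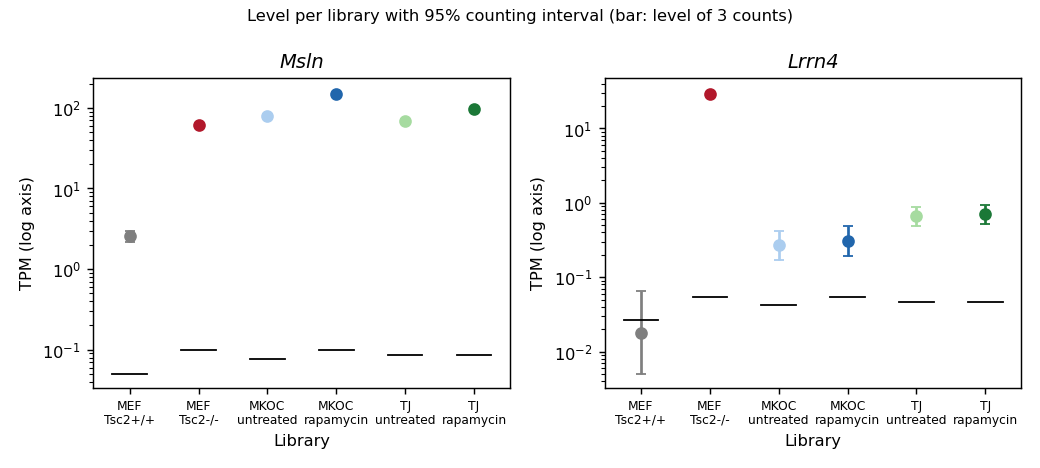
TPM (log axis) of *Msln* (left) and *Lrrn4* (right), the genes tested in the kidney lines, in each library, with 95% counting intervals as error bars and the level of 3 counts as a horizontal bar. *Msln* sits between 60.6 and 150.4 TPM in all libraries labelled null, while *Lrrn4* falls from 29.0 TPM in the *Tsc2*-/- MEFs to below 1 TPM in the kidney libraries.

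Uroplakins are membrane proteins that form plaques on the apical surface of the bladder, where the tetraspanin Upk1b pairs with a partner of the Upk3 type, and mesothelial cells hold *Upk1b* and *Upk3b* without the rest of the set. *Upk3b* (chr5:136038496-136046487, plus strand) was at 0 counts in the *Tsc2*+/+ MEFs and 154 TPM (149.9 to 158; 5162 counts) in the *Tsc2*-/- MEFs, which was above 92.0% of the genes with at least 1 TPM there. The kidney libraries gave 5 counts (0.115 TPM, untreated MKOC), 4 counts (0.118 TPM, treated MKOC), 2 counts (0.0512 TPM, untreated TJ) and 3 counts (0.0764 TPM, treated TJ), at or just above the floor. *Upk1b* (chr16:38773184-38800328, minus strand) had 1768 counts (71.9 TPM) in the *Tsc2*-/- MEFs and 0 counts in the other 5 libraries. In the kidney libraries a count of 0 allows between 0.0940 and 0.121 TPM. Both uroplakins were thus high in 1 library and at or near 0 in the rest. The partners that complete bladder plaques were not raised with them: in the *Tsc2*-/- MEFs *Upk2* and *Upk3a* had 0 counts and *Upk1a* was at 1.09 TPM, near its 1.08 TPM in the *Tsc2*+/+ MEFs. Of 8 urothelial markers 2 reached 1 TPM in the *Tsc2*-/- MEFs (*Upk1a* and *Gata3*), none reached 10 TPM, and their summed level was 6.40 TPM against 1.84 TPM in the *Tsc2*+/+ MEFs. The paralog *Upk3bl* ran the opposite way. It had 0 counts in the *Tsc2*-/- MEFs and was at 13.5 (untreated MKOC), 25.1 (treated MKOC), 11.5 (untreated TJ) and 33.3 TPM (treated TJ) in the kidney libraries.

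The other membrane proteins are Gpm6a, a tetraspan glycoprotein of the proteolipid family best known from neurons, and Lrrn4, a protein with leucine-rich repeats. *Gpm6a* (chr8:54954843-55060871, plus strand) had 0 counts in the *Tsc2*+/+ MEFs, 3926 counts (80.4 TPM) in the *Tsc2*-/- MEFs, and at most 2 counts (0.0351 TPM, untreated TJ) in a kidney library. *Lrrn4* (chr2:132868305-132880891, minus strand) had 2 counts (0.0180 TPM) in the *Tsc2*+/+ MEFs and 1587 counts (29.0 TPM) in the *Tsc2*-/- MEFs. In the kidney libraries it was at 0.267 TPM (19 counts, untreated MKOC), 0.308 TPM (17 counts, treated MKOC), 0.658 TPM (42 counts, untreated TJ) and 0.701 TPM (45 counts, treated TJ). *Lrrn4* was therefore the only gene besides *Msln* above the floor in all 4 kidney libraries, at between 0.921% and 2.42% of its level in the *Tsc2*-/- MEFs. Both TJ libraries were higher than both MKOC libraries, although the counting interval of treated MKOC (0.192 to 0.494 TPM) overlapped that of untreated TJ (0.487 to 0.889 TPM).

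Wt1 and Bnc1 are zinc finger transcription factors, Wt1 of mesothelium, kidney progenitors and podocytes and Bnc1 (basonuclin 1) of mesothelium, keratinocytes and germ cells. *Wt1* (chr2:105126529-105173616, plus strand) had 3 counts (0.0668 TPM) in the *Tsc2*+/+ MEFs, 2337 counts (81.6 TPM) in the *Tsc2*-/- MEFs, and 4 (untreated MKOC), 1 (treated MKOC), 2 (untreated TJ) and 1 (treated TJ) counts in the kidney libraries. Both kidney lines, which held *Pax8* and *Cdh16* RNA, thus had no more than a trace of *Wt1* RNA. *Bnc1* (chr7:81966672-81992292, minus strand) had 1906 counts (27.5 TPM) in the *Tsc2*-/- MEFs, 2 counts (0.0222 TPM) in untreated MKOC and 0 in the other 4 libraries. *Bnc2*, its close relative of fibroblasts, was at 13.4 TPM in the *Tsc2*+/+ and 16.1 TPM in the *Tsc2*-/- MEFs, so the basonuclin genes differed in their pattern across the MEFs.

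*Wt1* is the only one of the 9 genes with more than 1 transcript in the table, which has 8. In the *Tsc2*-/- MEFs the transcript of 2395 bases took 1155 estimated counts (49.4% of the gene), that of 1418 bases took 579 (24.8%) and that of 2441 bases took 399 (17.1%). The first and the third start at position 105130883 of chromosome 2 and the second at 105127210, so starts at both positions received counts. Shares among transcripts are estimates of Kallisto from reads that the transcripts largely have in common. Labels give a stranded library kit, but whether strand was used in counting is not given in the sources used here, and the antisense gene *Wt1os* was not analysed here.

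Because *Wt1* also marks podocytes, the epithelial cells of the glomerulus, 8 podocyte genes were read beside it. In the *Tsc2*-/- MEFs 5 of the 8 reached 1 TPM and their summed level was 188 TPM, against 8.91 TPM in the *Tsc2*+/+ MEFs and between 7.32 and 26.1 TPM in the kidney libraries. *Podxl*, an apical sialomucin that mesothelial and vascular cells share with podocytes, gave 163 TPM of it. The slit diaphragm gene *Nphs1* had 0 counts there. The part of these genes in the *Wt1* result was not tested.

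Aldh1a2 converts retinaldehyde to retinoic acid. *Aldh1a2* (chr9:71215789-71296243, plus strand) had 1130 counts (35.0 TPM; 33.1 to 37.1) in the *Tsc2*-/- MEFs and 0 counts in the other 5 libraries, which allows up to 0.0459 TPM in the *Tsc2*+/+ MEFs and between 0.0716 and 0.0923 TPM in the kidney libraries. Its paralog *Aldh1a1* had the same high library, with 113.8 TPM in the *Tsc2*-/- MEFs against at most 0.445 TPM elsewhere, whereas *Aldh1a3* lay between 0.759 and 1.04 TPM in all 6. Of 14 genes of retinoid transport, synthesis, reception and breakdown, 11 reached 1 TPM in the *Tsc2*-/- MEFs and 7 in the *Tsc2*+/+ MEFs. *Crabp2*, a carrier of retinoic acid, was at 222 against 92.3 TPM, *Dhrs3*, which returns retinaldehyde to retinol, at 45.7 against 3.20 TPM, and the receptor gene *Rarb* at 12.2 against 0.111 TPM. *Rarg* was at 59.1 against 66.0 TPM. *Rdh10*, the retinol dehydrogenase that acts just before Aldh1a2, was at 5.12 against 6.04 TPM.

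The fold between the MEF libraries is the contrast on which the genes were chosen, so it is given as a description with no test and nothing is read from it. On the scale of TPM with 1 added, which understates the change of low genes, *Upk3b* was 155-fold higher in the *Tsc2*-/- MEFs, *Gpm6a* 81.4-fold, *Wt1* 77.4-fold, *Upk1b* 72.9-fold, *Aldh1a2* 36.0-fold, *Lrrn4* 29.5-fold, *Bnc1* 28.5-fold and *Msln* 17.2-fold. *Muc16*, at 1.61-fold, was the only one under 8-fold. Of the 12771 genes with at least 1 TPM in either MEF library, 414 (3.24%) were at least 8-fold higher, and the 8 genes had places 9 (*Upk3b*) to 179 (*Msln*) in that order. Against the floor of 3 counts in the *Tsc2*+/+ library, *Upk3b* was at least 3490-fold, *Gpm6a* at least 2661-fold, *Bnc1* at least 1294-fold, *Upk1b* at least 1192-fold, *Aldh1a2* at least 764-fold and *Muc16* at least 5.34-fold higher in TPM. The TPM ratio was 23.6 for *Msln* (95% counting interval 20.0 to 27.9), 1221 for *Wt1* (418 to 5920) and 1614 for *Lrrn4* (446 to 13341). The TPM ratio of all 7377 genes with at least 10 TPM in both libraries had a median of 1.31, and transcripts under 300 bases took 20.9% of the TPM of the *Tsc2*+/+ library against 7.12% of that of the *Tsc2*-/- library.

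The first question in the kidney lines was whether rapamycin changed these genes. *Msln* rose with rapamycin in both lines. Its TPM ratio of treated over untreated was 1.88 in MKOC (95% counting interval 1.80 to 1.97) and 1.40 in TJ cells (1.33 to 1.48). Across the lines the change was 0.70 on the log2 scale (SE 0.12), or 1.62-fold, with an adjusted p of 0.00168 in the quasi-likelihood F-test of edgeR, adjusted by Benjamini-Hochberg over the 12952 genes tested. That fit takes the lines as the only replicates, and 17.5% of all genes tested were called higher and 17.4% lower, so a call was common. The rise of *Msln* was exceeded by 10.5% of the genes, and the median gene moved by 0.02. With MKOC and TJ cells not treated as a pair the change was 0.72 with an adjusted p of 0.0996 in edgeR, which missed the threshold of 0.05. Leaving out 1 library and the line term in edgeR gave a change of 0.84 without untreated MKOC (adjusted p = 0.218), 0.36 without treated MKOC (adjusted p = 0.214), 0.61 without untreated TJ (adjusted p = 0.314) and 1.01 without treated TJ (adjusted p = 0.0306). Whether the larger ratio in MKOC differs from that in TJ cells was not tested, as no replicate was left for it.

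*Lrrn4* was the only other of the 9 genes with enough counts to be tested, and it did not pass. Its TPM ratio of treated over untreated was 1.15 in MKOC (0.564 to 2.35) and 1.07 in TJ cells (0.684 to 1.66), and edgeR's change was 0.13 on the log2 scale (SE 0.35, adjusted p = 0.81 over all genes). Both counting intervals include a ratio of 1. The remaining 7 genes had between 0 and 14 counts summed over the 4 kidney libraries and were removed by the filter on low counts, so no rapamycin response of theirs was detectable at this depth.

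The second question was whether the tumor-derived TJ cells differ from MKOC cells. *Msln* was lower in TJ cells, at a TPM ratio of 0.870 among the untreated (95% counting interval 0.825 to 0.918) and 0.649 among the treated libraries (0.621 to 0.679). The change was -0.43 on the log2 scale (SE 0.12), with an adjusted p of 0.0492 in the same edgeR test, just inside the threshold. Of all genes tested 3.32% were called higher in MKOC and 5.47% higher in TJ cells. The call held in 1 of 11 other settings of the analysis, the fit without a filter on low counts (edgeR adjusted p = 0.00547), and the sign turned without treated MKOC, where the edgeR change was 0.036 (adjusted p = 0.999). *Lrrn4* was higher in TJ cells by 1.22 on the log2 scale (SE 0.36), or 2.33-fold, with an edgeR adjusted p of 0.0651, which did not pass. The TPM ratio of *Lrrn4* was 2.46 among the untreated (1.40 to 4.48) and 2.27 among the treated libraries (1.28 to 4.24). Of 11 alternatives it passed in 1, edgeR without the filter on low counts (adjusted p = 0.0336), and missed in the other 10, among them DESeq2 (adjusted p = 0.513) and limma on log2(TPM + 1) (adjusted p = 0.154, with a change of 0.38).

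**Figure D4:**
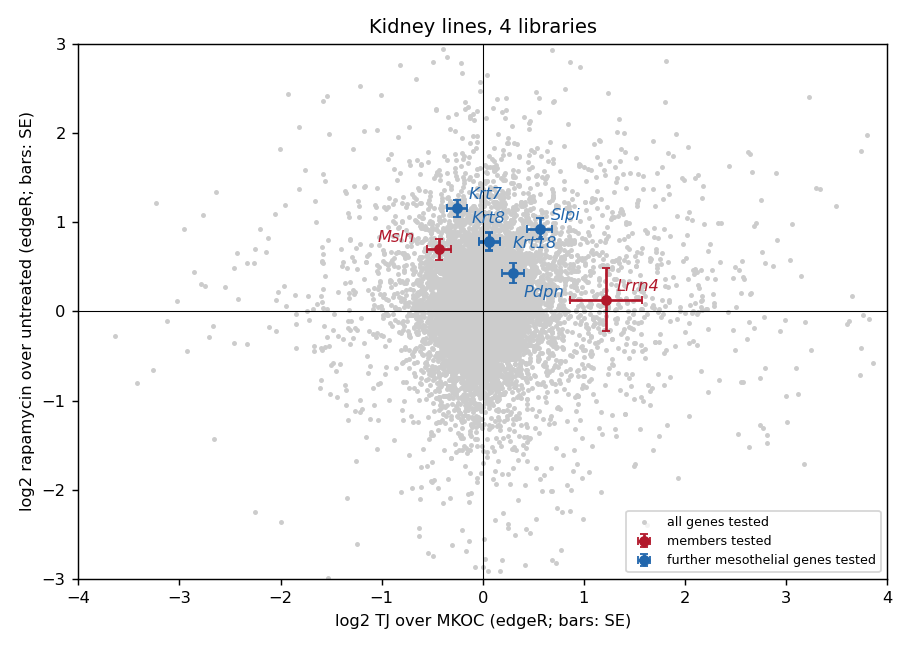
edgeR log2 change between the lines (TJ over MKOC, horizontal axis) against that with rapamycin (treated over untreated, vertical axis) for the genes tested in the 4 kidney libraries, in gray, with the tested mesothelial markers in red and the tested further mesothelial genes in blue, bars giving SE. *Msln* (-0.43, 0.70) lies up and to the left and *Lrrn4* (1.22, 0.13) to the right, and 38 of 12952 genes lie outside the axes.

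A further 16 genes of mesothelium, among them its keratins, also divided between the cell types. In the *Tsc2*-/- MEFs 13 of the 16 were at 1 TPM or more, in the *Tsc2*+/+ MEFs 4, and in each kidney library 5. The 5 in the kidney lines were the keratins *Krt7*, *Krt8* and *Krt18*, the surface sialomucin *Pdpn* and the protease inhibitor *Slpi*, all of them known from other epithelia too. *Krt8* was at 539 (untreated MKOC), 918 (treated MKOC), 560 (untreated TJ) and 990 TPM (treated TJ), while it was at 0.477 TPM in the *Tsc2*-/- MEFs, and its partner *Krt18* was at 20.6 TPM there. *Krt19* had the opposite order, with 55.6 TPM in the *Tsc2*-/- MEFs and at most 0.800 TPM in the kidney libraries. *Ildr2*, *Pkhd1l1* and the Wnt agonist *Rspo1* were at 25.9, 22.8 and 17.1 TPM in the *Tsc2*-/- MEFs and at most 0.0607 TPM in any kidney library. *Slpi*, counted in both MEF tallies, was at 92.5 TPM in the *Tsc2*+/+ and 1.67 TPM in the *Tsc2*-/- library. *Calb2*, which encodes the mesothelial marker calretinin, had 0 counts in all 6 libraries. The profile of the *Tsc2*-/- MEFs therefore was incomplete, with *Calb2* at 0 and *Krt8*, *Prg4* and *Muc16* under 1 TPM.

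**Figure D5:**
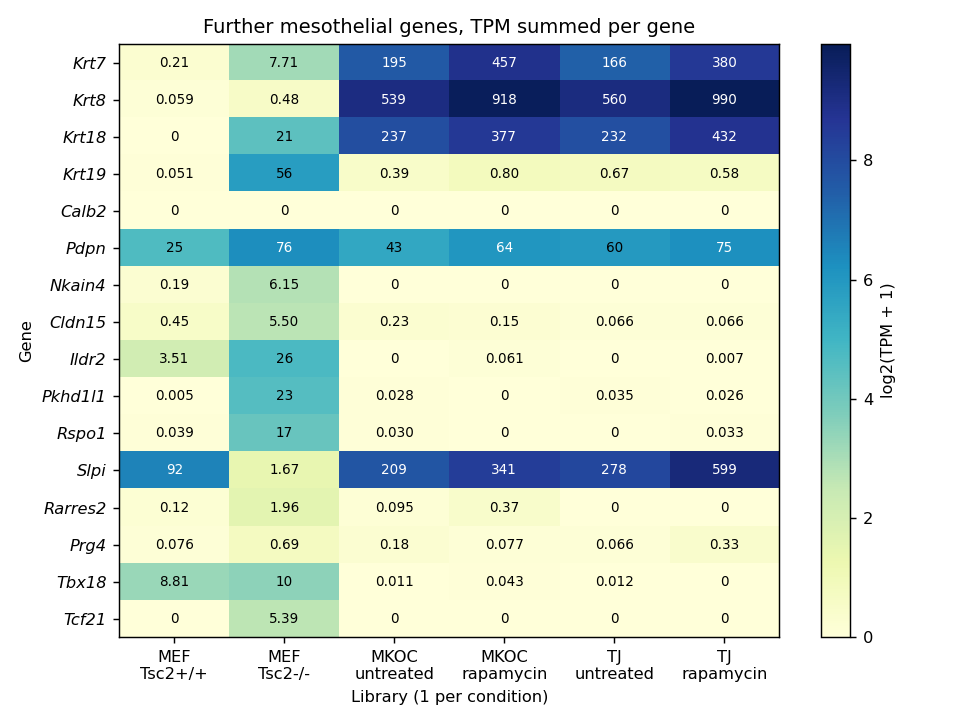
Level of 16 further mesothelial genes (rows) in the 6 libraries (columns), with TPM printed and log2(TPM + 1) as the color. *Krt7*, *Krt8*, *Krt18*, *Pdpn* and *Slpi* are filled in the kidney columns, *Krt19*, *Pkhd1l1* and *Rspo1* only in that of the *Tsc2*-/- MEFs, and *Calb2* in none.

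The 5 of these 16 genes that could be tested in the kidney lines all rose with rapamycin, as *Msln* did. The edgeR log2 changes were 1.16 for *Krt7* (SE 0.10), 0.93 for *Slpi* (SE 0.12), 0.79 for *Krt8* (SE 0.10), 0.78 for *Krt18* (SE 0.10) and 0.43 for *Pdpn* (SE 0.11), with adjusted p between 3.33e-05 and 0.0137. Their median was 0.79, beside 0.02 over all genes tested. Among single genes, other settings of the analysis were read only for *Msln* and *Lrrn4*. Whether the calls of these genes hold in other settings was not tested. Beside the counts that follow, 17.5% of all genes tested were called higher with rapamycin and 17.4% lower, and nothing particular to a list is read from its count. Of 9 tested genes of the kidney epithelium, 2 were called higher (*Cdh16* by 0.37 and *Cldn4* by 0.31 on the log2 scale), and their median was 0.15. Of 10 tested relatives of the 9 genes, 3 were called higher, the uroplakin paralog *Upk3bl* (1.23), the mucin *Muc4* (1.91) and the zinc finger gene *Egr1* (1.51). Of 9 tested genes of the retinoic acid route, *Rdh10* (1.22), *Stra6* (0.67), *Rxrb* (0.64) and *Rarg* (0.46) rose and *Crabp2* fell by 1.25. Between the lines, *Slpi* of the 16 (0.56) and *Stra6* (1.52), the receptor for the retinol carrier, were called higher in TJ cells by edgeR, with adjusted p of 0.0194 and 7.68e-05. Of markers of other cell types, *Synpo* of the podocyte genes, 1 of 4 urothelial genes tested (*Trp63*) and 2 of 7 fibroblast genes (*Dcn* and *Col3a1*) rose with rapamycin, and of 3 endothelial and blood cell genes the lowest adjusted p by edgeR was 0.0967 (*Cd68*). Between the lines *Cdh16*, *Synpo* and *Pdgfrb* were called higher in TJ and *Cdh5* and *Dcn* in MKOC cells, beside 5.47% and 3.32% of all genes tested. The calls of *Pdgfrb*, *Col3a1* and *Muc4* rest on low levels, at most 0.180, 1.07 and 0.595 TPM in any kidney library. *Pdgfrb* was at the floor in untreated (3 counts) and treated MKOC (2 counts). The summed fibroblast level in the kidney libraries, between 7.78 and 52.3 TPM, was mostly *Dcn*, which was higher in MKOC cells (edgeR log2 change -2.12, adjusted p = 2.85e-05). The part of any of these in the *Msln* result was not tested.

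The genes nearest to these in pattern were found by distance between log2(TPM + 1) profiles over the 6 libraries, among 9589 genes with at least 10 TPM in some library. Nearest to the median profile of the 9 genes were *Bex2*, *Bex4*, *Nsg1*, *Itm2a*, *Cd55*, *Rspo3*, *Sulf1*, *Cdh11*, *Nid2* and *Loxl2*, at distances of 0.182 to 0.621. *Bex2* was at 55.0 TPM in the *Tsc2*-/- MEFs and at most 0.0889 TPM elsewhere, *Rspo3* at 80.7 and at most 0.0144 TPM. In all, 112 genes of the pool had a Pearson correlation of 0.99 or more with that median over the 6 libraries, a value that the height of 1 library can give. *Gpm6a*, *Wt1* and *Upk1b* were each among the 3 nearest genes of the other 2, with *Rspo3* as the remaining one. All 3 were chosen for their level in the *Tsc2*-/- MEFs and were at or near 0 elsewhere. Their nearness therefore restates similar levels in that library, 80.4, 81.6 and 71.9 TPM in the same order. *Upk3b* was nearest to *Bex1*, *Mdk* and *Myrf*, *Bnc1* to *Tmem45a*, *Sfrp1* and *Rps4l*, *Lrrn4* to *Cck*, *Ccser1* and *Lama4*, and *Aldh1a2* to *Gata6*, *Dpp4* and *Apela*. *Muc16* reached at most 0.605 TPM, so a pool of genes with at least 10 TPM could hold no close neighbour of it. The nearest in that pool were *Msrb2*, *Gng11* and *Hopx* at distances of 2.80 to 2.86. *Msln* was nearest to genes that the kidney lines also held, *Ampd3* (distance 1.02), *Gprc5a* (1.26) and *Cxadr* (1.38). *Ampd3* was at 4.38 TPM in the *Tsc2*+/+ MEFs, 49.1 TPM in the *Tsc2*-/- MEFs and between 74.2 and 90.9 TPM in the kidney libraries.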

How the data were processed

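Total RNA of 6 mouse cultures was made into stranded mRNA libraries and sequenced. From trimmed reads the authors made estimated counts and TPM with Kallisto, which are deposited for 88198 transcripts. The identifiers of these transcripts are from mouse, although the study's methods give a human reference. The deposited ratio, the authors' fold change per transcript between the MEF libraries, was used only for its pairing of transcripts with gene symbols. Transcripts with no symbol took 0.372% to 0.468% of the counts of a library and were left out.

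TPM and estimated counts were summed per symbol. Libraries were grouped by their titles and genotype and treatment labels. The 9 genes and all lists were chosen with earlier results of these data known. Named from the lists are the up to 4 genes with the highest TPM and those called where at most 4 were, and for likeness the 10 nearest genes to the median profile and the 3 nearest to each gene; other list members named were chosen after their values were seen. Some list members are not reported here by name. Folds between the MEFs used TPM with 1 added and a threshold of 8, with no test. In the 4 kidney libraries counts were rounded to whole numbers, low genes were removed by filterByExpr, and after TMM scaling the quasi-likelihood F-test of edgeR had treatment and line as terms, with Benjamini-Hochberg adjustment over all genes at 0.05. Nothing says that cultures of a line were independent, so p-values measure the spread among these 4 libraries, with 1 residual degree of freedom and a spread shared over genes. The pairing comes from the titles, which name the line, and deviations of a line's libraries from the treatment means correlated at 0.56 over 12952 genes. Estimated counts per library set the precision, and a count of 0 allows up to 3 counts.

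When tested on simulated counts, 200 of 12952 genes changed by 4-fold, the fit recovered 194 with 3 false calls for rapamycin and 194 with 9 for the line. The simulation gave all genes the same spread and the other term no effect. Recovery at smaller changes, such as the 1.62-fold of *Msln* with rapamycin, was not tested. Alternatives were other pseudocounts, thresholds, scalings, filters, tools and leaving out libraries. Positions are from GENCODE M21 (GRCm38), promoter windows from RefSeq (GRCm38.p6). The tests ran in R 4.3.3 with DESeq2 1.42.0, limma 3.58.1 and edgeR 4.0.16, sums and intervals in Python 3.11.15 with pandas 2.3.3, statsmodels 0.14.6 and numpy 2.4.6, and plots in matplotlib 3.10.9.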

Additional observations from a re-analysis of the deposited data

How the results depend on the processing

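In the MEFs the count of genes at least 8-fold higher, 414, became 1113 with 0.1 added to TPM, 102 with 5 added, 929 at 4-fold and 191 at 16-fold, since a smaller addition shrinks each fold less and a lower threshold admits smaller folds. The count of marker genes among them was 8 in every setting except with 5 added, where it was 6. The 1 gene at 1 TPM or more in each kidney library became 3 (untreated MKOC), 4 (treated MKOC), 2 (untreated TJ) and 2 (treated TJ) at 0.1 TPM, 1 and 2 in MKOC and TJ libraries at 0.5 TPM, and 4, 3, 2 and 2 with more than 3 counts. By Pearson correlation 1 of the 10 nearest genes was shared.

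With rapamycin edgeR called 4526 genes. Without the replicate block for the line it called 1275, and with transcripts in place of gene sums 0 (5770 at an unadjusted p under 0.05). Leaving out 1 library together with the line term, where the arm left with 1 library is assumed to vary like the other, gave 0 to 613 (the 0, without untreated TJ, had 2688 at an unadjusted p under 0.05). DESeq2 called 3062 and limma 3632. Between the lines edgeR called 1139 genes, 1753 without a filter on low counts, 622 in DESeq2, 605 in limma, 0 with transcripts (2413 unadjusted), 0 without the replicate block for treatment (702 unadjusted) and 0 to 107 with 1 library left out (642 and 655 unadjusted where it was 0). The causes were not tested, beyond the fewer samples and the dropped term.

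For *Msln* with rapamycin the log2 change ranged from 0.36 to 1.01 over 11 alternatives and its sign held in all, while the call was lost in 5, with adjusted p from 8.55e-07 to 0.314 (edgeR, DESeq2 or limma). For *Msln* between the lines leaving out 1 library gave changes from -0.87 (without untreated MKOC) to 0.036 (without treated MKOC, a turned sign). For *Lrrn4* between the lines the change ranged from 0.38 to 1.31 and passed in 1 of 11 alternatives. With rapamycin the change of *Lrrn4* turned to -0.38 without untreated MKOC and -0.57 without treated TJ and was 0.90 without untreated TJ, with no call in any setting. At under 50 counts a library *Lrrn4* is limited by depth, and the 7 genes at or near 0 counts cannot be compared in the kidney lines.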
